A study of Homo sapiens with 6 samples.

Results

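The regions described here are the accessible sites around GATA4, GATA5 and GATA6, the zinc finger transcription factor genes of the cardiac GATA group. A called ATAC-seq peak belonged to a locus when its midpoint lay in a fixed window on hg19, which was chromosome 8, 11.45 to 11.70 Mb, for GATA4, chromosome 20, 60.98 to 61.11 Mb, for GATA5 and chromosome 18, 19.65 to 19.90 Mb, for GATA6. Peaks of the 6 libraries that shared at least 1 bp were merged into sites. The windows held 433 of 478912 peaks and 133 of 157560 merged sites, of which 59 lay at GATA4, 44 at GATA5 and 30 at GATA6. The windows were set by position and not by any measured value. No annotation of hg19 was used here, so a site is not assigned to a gene, to a promoter or to an intron. In the RefSeq gene order of GRCh38, the nearest protein-coding genes are BLK and NEIL2 beside GATA4, RBBP8NL and SLCO4A1 beside GATA5, and MIB1 and CTAGE1 beside GATA6. The next genes outward are FAM167A and FDFT1 for GATA4, CABLES2 and NTSR1 for GATA5, and ABHD3 and RBBP8 for GATA6. Some sites, strong ones included, may belong to such neighbours. Below, a site is named after a GATA gene only because it lies in that gene's window.

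ATAC-seq marks open chromatin through the cuts of the Tn5 transposase. It was run on ventricular-like cardiomyocytes at day 15 of differentiation with a commercial kit from H9, an established human embryonic stem cell line. The control group and the ZNF436 knockdown group had 3 libraries each, made from independent differentiations per the labels. ZNF436 is a zinc finger protein gene. The sources used here name neither the agent of the knockdown nor the treatment of the control cultures, and the level of ZNF436 itself was not analysed here. Both groups stem from 1 cell line, and a culture can hold cells other than cardiomyocytes. The peaks near cardiomyocyte marker genes were not analysed here, since these genes could not be placed on hg19.

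GATA4, GATA5 and GATA6 bind the short sequence from which the family takes its name and act at promoters and distal elements. GATA4 and GATA6 are needed early in heart formation, where they act with partners such as NKX2-5, TBX5 and the cofactor ZFPM2, and GATA4 stays active in beating cardiomyocytes. GATA5 is known from endocardial and valve development. All of them are also used in endoderm, so that open chromatin at these genes is not by itself a mark of heart cells.

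RefSeq promoter sequence was at hand for GATA6 and for neither of the other genes. The 250 bases before the GATA6 start (GRCh38.p14, plus strand) are shown, with each CpG in capitals:
GATA6: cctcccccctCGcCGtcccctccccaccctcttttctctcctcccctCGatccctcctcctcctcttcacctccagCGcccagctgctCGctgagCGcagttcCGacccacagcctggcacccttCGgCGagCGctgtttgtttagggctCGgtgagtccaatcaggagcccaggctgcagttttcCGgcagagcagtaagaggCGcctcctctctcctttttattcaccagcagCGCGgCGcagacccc
This stretch held 16 CpGs and 64.4% G and C, against medians of 11 and 58% over 35116 promoters. At least as many CpGs were found in 41% of promoters. The letters GATAA, a common form of the GATA motif, occurred on neither strand, and 20.4% of the promoters held them on at least 1 strand. Which of the sites below holds this stretch was not determined, since the sequence and the peaks are on different builds.

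The libraries differed in size before any locus was looked at. Control lists held 50719 to 68342 peaks and knockdown lists 87871 to 115864, and the bases they covered ran from 21.65 to 27.35 Mb and from 38.67 to 49.38 Mb. The depth behind the lists is unknown, and its part in the results below was not tested. Control replicate 3 had the longest control list. In a culture, a site open in more cells and a site more open in each cell cannot be told apart.

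At all 3 loci the knockdown libraries held more peaks on average, and the rise was of the size seen over the whole genome. The GATA4 window held 25, 25 and 31 peaks in control replicates 1 to 3 and 47, 48 and 39 in the knockdown replicates. No knockdown library fell as low as a control library there. The means were 27 ± 3.46 and 44.67 ± 4.93 peaks (SD, n = 3 each), a ratio of 1.65 (exact permutation test, two-sided, p = 0.1). This p is the smallest that 3 against 3 libraries can give.

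The GATA5 window held 13, 15 and 19 peaks in control and 24, 29 and 18 in knockdown. The groups overlapped, since knockdown replicate 3 lay below control replicate 3. The means were 15.67 ± 3.06 and 23.67 ± 5.51 (SD, n = 3 each), a ratio of 1.51 (exact permutation test, two-sided, p = 0.2). The GATA6 window held 10, 8 and 14 peaks in control and 28, 22 and 18 in knockdown, again without overlap. Its means were 10.67 ± 3.06 and 22.67 ± 5.03 (SD, n = 3 each), a ratio of 2.13 (exact permutation test, two-sided, p = 0.1). Over all peaks of the lists the ratio was 1.77. There too every knockdown library held more peaks than every control library. Over the windows and tiles of 250 kb, limma without scaling called 5907 of 8837 rows higher in knockdown and 32 lower (adjusted p under 0.05). The share of tiles whose peak numbers did not overlap was not counted.

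As a share of each library's peaks, none of the 3 windows passed the test. Windows were compared with tiles of 250 kb by limma on log2((peaks + 0.5) per library total), with Benjamini-Hochberg adjustment over 8837 rows and a threshold of 0.05. Of all rows, 4.81% were called higher in knockdown and 5.58% lower. GATA4 had a log2 change of -0.11 ± 0.12 (SE; limma adjusted p = 0.571), GATA5 of -0.26 ± 0.15 (limma adjusted p = 0.287) and GATA6 of 0.24 ± 0.16 (limma adjusted p = 0.352). The median of all rows was 0.05. None of the 3 loci could be told from the genome-wide rise by the number of peaks, and at unadjusted p under 0.05 the count was also 0. In lists cut to an equal length by score, the mean number of peaks was lower after knockdown in all 3 windows, with ratios of knockdown to control of 0.901, 0.784 and 0.893 for GATA4, GATA5 and GATA6.

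**Figure D1:**
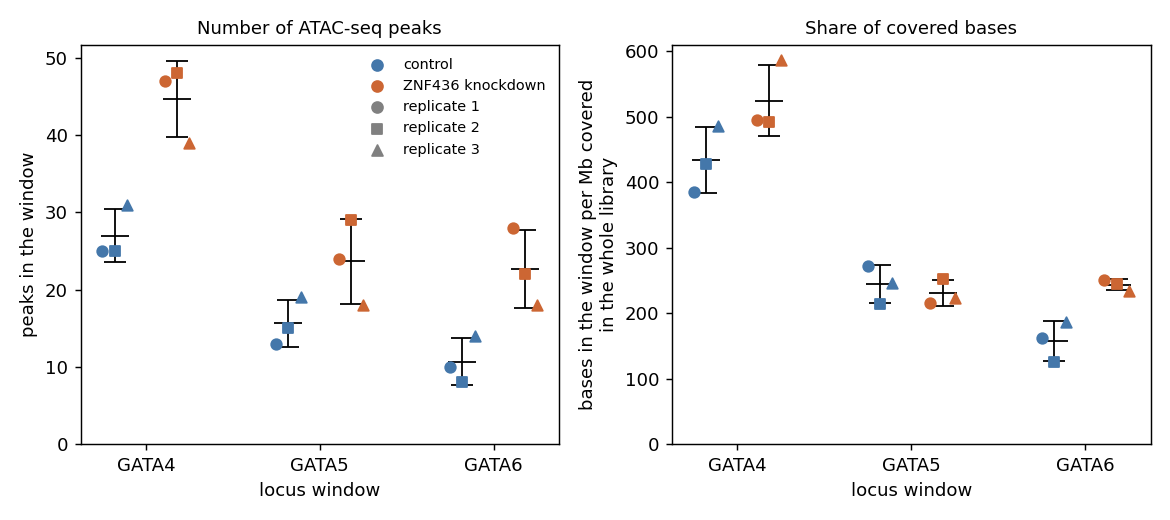
Peaks in each locus window (left) and bases covered by peaks in the window per Mb covered in the whole library (right). Each point is 1 library, with the shape giving the replicate number, and the bars give the mean and SD of 3 libraries. Peak numbers overlap between the groups only at GATA5, and the peak totals of the whole libraries do not overlap. The share of covered bases at GATA6 is at most 186.5 in control and 234.5 to 251.4 in knockdown. At GATA4 it does not overlap either, with at most 486.5 in control and at least 491.9 in knockdown, and at GATA5 it overlaps. The share of tiles without overlap was not counted.

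All windows were richer in peaks than most of the genome in both groups. In control, GATA4 lay at percentile 98.7 of the tiles of 250 kb with a peak, whose median was 3.33 peaks. GATA5, whose window is 130 kb long, lay at percentile 98.7 of tiles of that length, with a median of 1.67 peaks. GATA6 lay at percentile 87.9. In knockdown the percentiles were 99.6, 99.2 and 92.9. Of the 3, GATA6 was thus the sparse locus, with its longest stretch between sites reaching 46.26 kb, against 25.41 kb at GATA4 and 11.94 kb at GATA5.

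The bases covered by peaks separated the loci more than the number of peaks did. At GATA6, peaks covered 3.505, 2.758 and 5.099 kb in control and 12.41, 10.69 and 9.067 kb in knockdown. Every knockdown library was above every control library. The means were 3.79 ± 1.2 and 10.72 ± 1.67 kb (SD, n = 3 each), or 1.51% and 4.29% of the window, a ratio of 2.83 (exact permutation test, two-sided, p = 0.1). At GATA4 the values were 8.351, 9.45 and 13.3 kb against 24.44, 21.43 and 22.71 kb, with a ratio of 2.2 and no overlap (exact permutation test, two-sided, n = 3 each, p = 0.1). At GATA5 they were 5.882, 4.727 and 6.753 kb against 10.63, 11.02 and 8.648 kb, with a ratio of 1.75 and no overlap (exact permutation test, two-sided, n = 3 each, p = 0.1). The same ratio over the whole lists was 1.85, and there too every knockdown library was above every control library. Without scaling, limma called 7942 of 8971 rows higher in knockdown and 38 lower (adjusted p under 0.05). A rise in raw bases was thus common to most rows. The share of tiles without overlap was not counted.

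GATA6 was the only one of the 3 windows whose share of covered bases was called different. Per Mb covered in the library, the GATA6 window had 161.9 and 186.5 bases in control replicates 1 and 3, a lower value in control replicate 2, and 251.4, 245.3 and 234.5 in knockdown, with means of 157.8 ± 30.91 and 243.7 ± 8.57 (SD, n = 3 each). In limma over 8971 rows this was a log2 change of 0.59 ± 0.14 (SE; limma adjusted p = 0.0144), or 0.52 above the median row. This test was chosen after the data had been seen, and 12.1% of all rows were called higher and 8.22% lower (1089 and 737 rows). With the median ratio as the scale, GATA6 was still called, with a change of 0.54 (limma adjusted p = 0.0178). The split of all rows was then 890 higher and 967 lower. GATA4 had a change of 0.26 ± 0.11 (SE; limma adjusted p = 0.111) and GATA5 of -0.10 ± 0.12 (SE; limma adjusted p = 0.559). The GATA4 shares did not overlap between the groups either, with at most 486.5 bases in control and at least 491.9 in knockdown. Whether GATA6 differs from GATA4 or GATA5 was not tested. The call at GATA6 did not hold in lists of equal length, where the change was 0.32 (limma adjusted p = 0.247), nor without knockdown replicate 1 (0.57, limma adjusted p = 0.0842) or knockdown replicate 2 (0.59, limma adjusted p = 0.0547). Without control replicate 3, GATA4 also passed the threshold, with 0.34 (limma adjusted p = 0.0338).

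Peaks in knockdown libraries alone were common at the 3 loci, and sites with a peak in every knockdown library and none in control were few. Of the 133 sites, 26 (19.5%) were called in all 6 libraries, close to the 18.2% of all sites in the genome. Another 52 (39.1%) were called in a single library, where the genome had 38.3%. Peaks of every knockdown library and of no control library made up 5 sites, which is 3.76% against 7.72% in the genome. The order of these shares depended on the rule, with 15 sites (11.3%, genome 9.84%) where peaks had to cover at least 50% of a site and 6 of 50 sites (12%, genome 9.91%) in the stronger part of each list. No control library had a peak at 61 of the 133 sites (45.9%), close to the 47.7% of the genome. None was called in all 3 control and no knockdown libraries, against 0.131% in the genome. More knockdown than control libraries called the site at 89 of 133 sites (66.9%, genome 65.4%), and more control libraries at 11 (8.27%, genome 12.1%).

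By locus, GATA4 held 16 of the 26 sites called in all 6 libraries, GATA5 held 6 and GATA6 held 4. GATA6 had 18 of 30 sites (60%) with no peak in any control library, where the genome had 47.7%, and no site without a peak in a knockdown library, where the genome had 10.7%. At GATA6, 26 of 30 sites (86.7%, genome 65.4%) were called in more knockdown than control libraries. GATA5 had 8 of 44 sites (18.2%, genome 9.85%) that were called in a single control library and in no knockdown library. Whether the loci differ from each other or from the genome in these shares was not tested. Sites called in all 6 libraries had a median width of 1108 bp, the 5 sites of every knockdown and no control library 409 bp and sites of a single library 173.5 bp. Over the genome the medians of these kinds were 873, 353 and 174 bp.

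**Figure D2:**
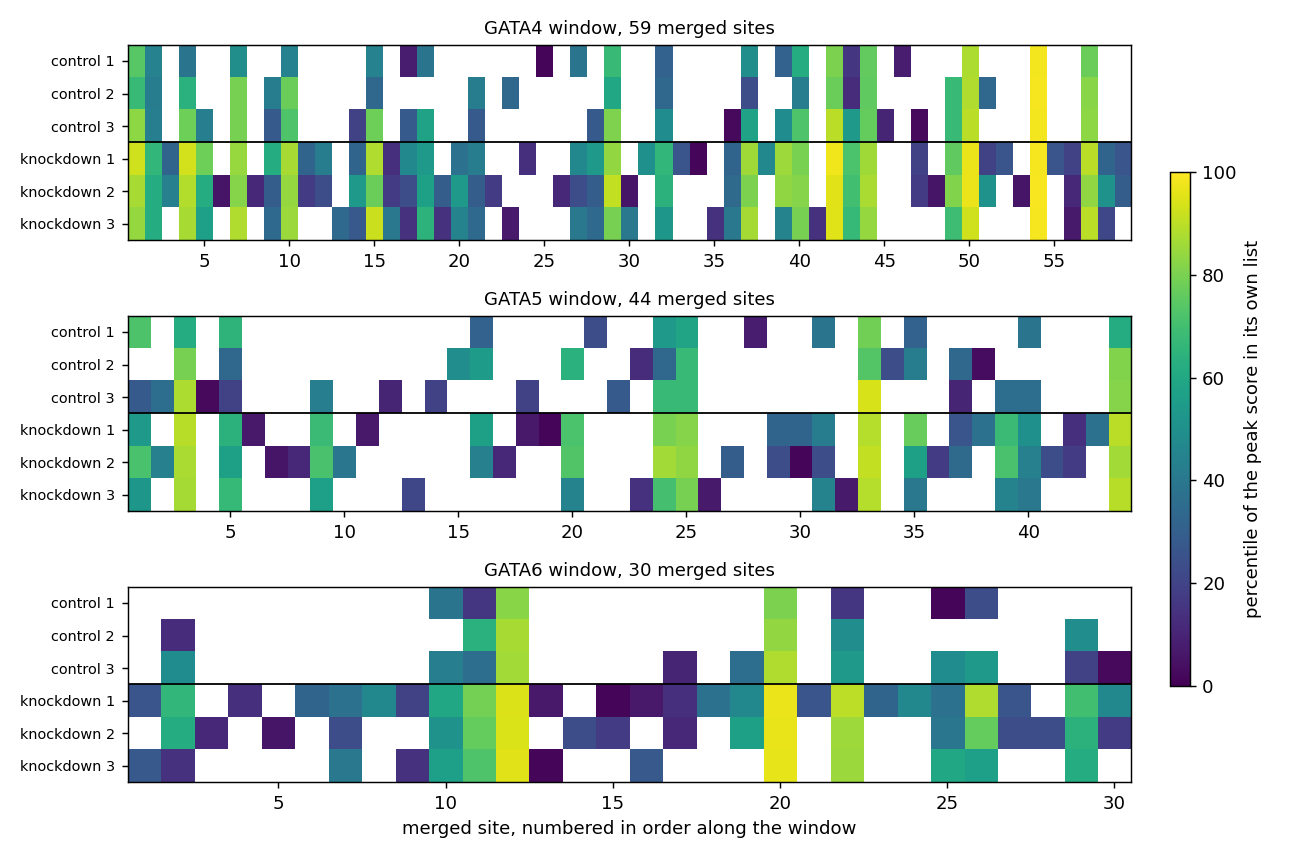
Merged sites of each window (columns, in order along the window) in each library (rows). Colour gives the percentile of the site's highest peak score within its own list, and white means that no peak was called. The shared sites form full columns, 16 at GATA4, 6 at GATA5 and 4 at GATA6, and the GATA6 window is white in the control rows at 18 of 30 sites, against 47.7% of sites in the genome.

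The 5 sites called in every knockdown library and in no control library had scores in the middle or lower part of their lists and were 222 to 490 bp wide. At GATA4 they were chr8:11535610-11536018, chr8:11549677-11550141, chr8:11663755-11664244 and chr8:11677828-11678095, and at GATA6 chr18:19733478-19733699. The site at chr8:11549677-11550141 was covered over 172, 143 and 432 bp in the knockdown replicates, at score percentiles of 37.4, 54.1 and 44.7 of their lists. The site at chr18:19733478-19733699 was covered over 222, 137 and 135 bp, at percentiles of 37.4, 23.6 and 39.9. No percentile of the 5 sites exceeded 54.1. The first and the third of the GATA4 sites lay 0.408 and 0.949 kb from a site called in all 6 libraries, and the other 3 sites lay 10.35 to 13.93 kb from one. In lists of equal length no site of the 3 loci had this pattern, against 3.07% of the sites of the genome.

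The widest site of the GATA6 window, chr18:19745038-19747549, was 2512 bp long and was called in 5 libraries. Peaks covered 465 bp of it in control replicate 1, none in replicate 2 and 563 bp in replicate 3. In knockdown they covered 1522, 2385 and 1803 bp. Its scores stayed in the middle of every list that called it, at percentiles of 38.3 and 42.8 in control and 59.4, 51 and 56.3 in knockdown. Thus the widest site was not among the strongest.

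The strongest sites of the GATA6 window were chr18:19773306-19774570 and chr18:19749019-19751300. The first was covered over 774, 603 and 1004 bp in control and 1091, 1051 and 1265 bp in knockdown. Its score lay at percentiles 80.1, 83.6 and 88.2 of the control lists and at 97.2, 96.5 and 96.4 of the knockdown lists. In control replicates 1 and 2 it was split into 2 peaks, while the other 4 libraries had 1 peak there. The second was covered over 1574, 1182 and 1369 bp in control and 2082, 1969 and 1917 bp in knockdown, at percentiles of 82.4, 86.9 and 86 and of 94.9, 94.3 and 95.7. Percentiles rise by themselves when weak peaks are added to a list, so these values alone show no change between the groups.

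The third GATA6 site by mean percentile was chr18:19786466-19787461. It was covered over 231, 267 and 425 bp in control and 763, 836 and 806 bp in knockdown, at percentiles of 15.8, 48.9 and 53.6 and of 90.2, 85.2 and 85. It ranked in the lower part of the control 1 list and in the upper part of every knockdown list. The remaining shared site, chr18:19747634-19748890, named after its values were seen, was covered over 180, 331 and 429 bp in control and 892, 920 and 960 bp in knockdown. At all 4 shared GATA6 sites, every knockdown library covered more bases than every control library. The same held at 47.2% of the sites of the genome called in all 6 libraries.

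In the GATA4 window the strongest site was chr8:11659351-11661100, near the end of the window. Whether it belongs to GATA4 or to a neighbouring gene was not determined. It lay at percentiles 98.3, 98.5 and 98.4 of the control lists and 98.6, 99.1 and 98.6 of the knockdown lists, and thus near the top of all 6. Peaks covered 995, 1310 and 923 bp of it in control and 1355, 1324 and 1478 bp in knockdown. Next came chr8:11626862-11628377, at percentiles of 87.7, 87.9 and 89.6 in control and 97.2, 97.2 and 92.7 in knockdown, with 898, 808 and 1104 bp against 1357, 1448 and 1349 bp. Control replicate 1 split this site into 3 peaks and control replicate 2 into 2, where the other libraries had 1. The third was chr8:11599176-11600662, with 334, 401 and 988 bp in control and 1057, 1197 and 1177 bp in knockdown.

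The widest GATA4 site was chr8:11533425-11535201, at 1777 bp, with 369, 406 and 763 bp covered in control and 1688, 852 and 1430 bp in knockdown. Here too the groups did not overlap. A further shared site, chr8:11575113-11575472, named after its values were seen, was narrow and even within each group, with 160, 187 and 149 bp in control and 350, 338 and 353 bp in knockdown.

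In the GATA5 window the 3 strongest sites overlapped in width between the groups. Whether they belong to GATA5 or to neighbouring genes was not determined. The strongest, chr20:61059901-61060964, was covered over 731, 612 and 885 bp in control and 754, 967 and 823 bp in knockdown, so that the groups overlapped. Its percentiles were 78.8, 73.4 and 93.8 in control and 88.9, 91 and 88.8 in knockdown, with control replicate 3 the highest of the 6. The next sites, chr20:60982328-60983183 and chr20:61086794-61087774, overlapped in width as well, with means of 588 ± 112.9 against 644.7 ± 177.8 bp and of 689.3 ± 149.6 against 772 ± 107.9 bp (SD, n = 3 each). The widest GATA5 site, chr20:61050054-61051862, had 845, 402 and 1062 bp in control and 1480, 1334 and 1237 bp in knockdown, without overlap. Another shared site, chr20:61048939-61049812, named after its values were seen, did not overlap either, with 374, 245 and 416 bp in control and 752, 677 and 650 bp in knockdown.

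Over the 26 shared sites, the knockdown widths all exceeded the control widths at 15, of which 9 were at GATA4, 2 at GATA5 and 4 at GATA6. In the genome this held for 47.2% of the sites called in all 6 libraries, so the count of 15 in 26 is near the background. The control widths all exceeded the knockdown widths at none, against 0.804% in the genome. The median log2 difference in width was 0.96 at GATA4, 0.52 at GATA5 and 0.99 at GATA6, against 0.47 over 28666 shared sites. After each library was centred on its median width, the medians were 0.42, -0.02 and 0.44, against -0.07. These medians moved when 1 library was left out: the GATA5 median was 0.56 without control replicate 3, 0.13 without control replicate 1 and -0.30 without control replicate 2, the GATA4 median was 0.22 without control replicate 1, and the GATA6 median was 0.17 without knockdown replicate 1 and 0.80 without control replicate 2. The genome's median stayed between -0.10 and -0.08 with any library left out.

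No shared site of the 3 loci passed limma's test of width with centring (adjusted p under 0.05), under which 0% of all sites were called wider and 0.0105% narrower. At unadjusted p under 0.05 there were 4 of 26 sites (15.4%), against 19.1% of all sites. The largest centred changes were those of chr18:19747634-19748890, at 1.10 ± 0.29 (SE; limma adjusted p = 0.124), and of chr18:19786466-19787461, at 0.89 ± 0.24 (SE; limma adjusted p = 0.131), together with chr8:11601313-11602127 at GATA4, named like the first after its values were seen, at 0.89 ± 0.43 (SE; limma adjusted p = 0.302). The 2 strongest GATA6 sites, chr18:19773306-19774570 and chr18:19749019-19751300, had centred changes of 0.00 ± 0.19 and 0.00 ± 0.14 (SE; limma adjusted p = 0.999 and 0.995). The GATA6 median of 0.44 thus lies between 2 large changes and 2 changes of 0.00. Without centring, 11 of 26 sites were wider and none narrower, namely 7 at GATA4, 1 at GATA5 and 3 at GATA6, where 12.7% of all sites were wider and 0.143% narrower. The uncentred change of chr18:19747634-19748890 was 1.65 ± 0.32 (SE; limma adjusted p = 0.0283) and that of chr8:11560488-11562225 at GATA4 was 1.32 ± 0.24 (SE; limma adjusted p = 0.0255). The uncentred calls include the widening common to the whole genome.

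**Figure D3:**
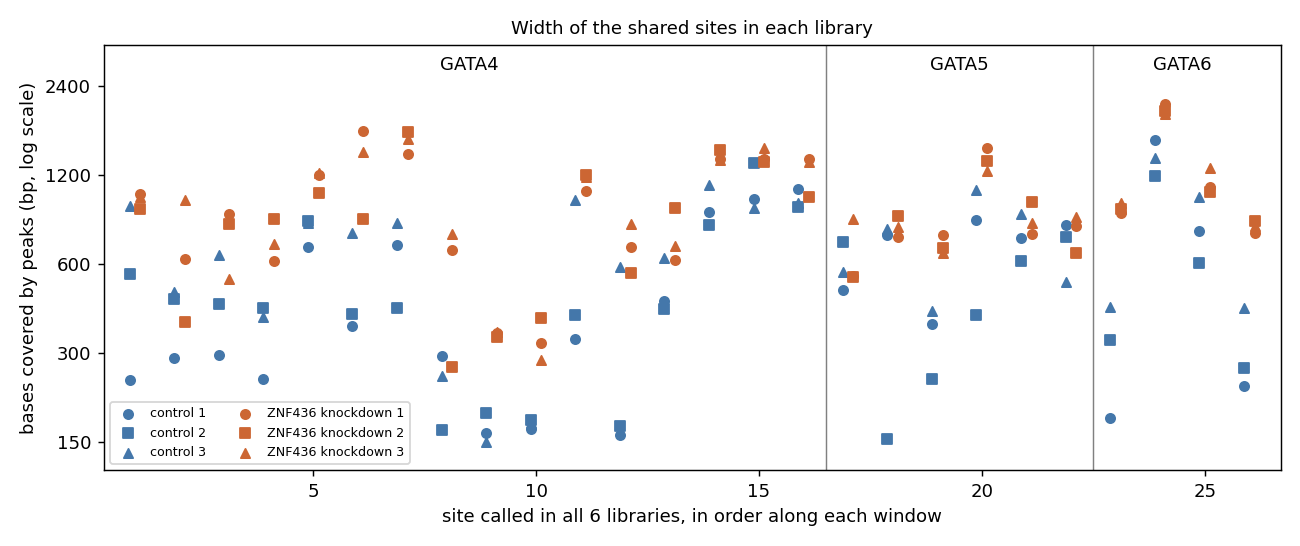
Bases covered by peaks at each of the 26 sites called in all 6 libraries, on a log scale, with 1 point per library. All 4 GATA6 sites are wider in each knockdown library than in each control library, as are 9 of 16 at GATA4 and 2 of 6 at GATA5. In the genome this held for 47.2% of the sites called in all 6 libraries.

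A site's rank was counted from the top of each list, so that 1 is the strongest peak. Each list was cut to its 50719 strongest peaks. A rank counted from the top stays the same when weaker peaks are cut from the end. The cut thus decided only which sites were kept, and it did not adjust the ranks for differences between the libraries. At 24 sites of the 3 loci all 6 lists still held a peak. The site at chr18:19773306-19774570 ranked 10106, 8782 and 8039 in control and 3289, 3596 and 3140 in knockdown. The site at chr18:19786466-19787461 ranked 42717, 27436 and 31735 in control and 11357, 15186 and 13201 in knockdown. The GATA6 site that starts at 19749019 ranked 8912, 7011 and 9584 against 5887, 5867 and 3763. At each of these, all knockdown ranks were stronger than all control ranks.

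Such separation was found at 3 of 4 GATA6 sites, 3 of 15 GATA4 sites and none of 5 GATA5 sites. In the genome, all knockdown ranks were stronger at 11.2% of 25093 sites and all control ranks at 12.3%. The reverse order occurred at 1 GATA4 site, chr8:11565167-11565971, which ranked 34702, 35817 and 35207 in control and 39061, 36743 and 41459 in knockdown. The median difference of log2 ranks, positive where knockdown is stronger, was 1.04 at GATA6, 0.18 at GATA4 and 0.10 at GATA5, against -0.03 in the genome. With 4 sites that lie within 1 window, the GATA6 values describe that window only, and no test was run on the ranks. The strongest GATA4 site, chr8:11659351-11661100, ranked 883, 819 and 1118 in control and 1635, 974 and 1215 in knockdown, with overlap.

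**Figure D4:**
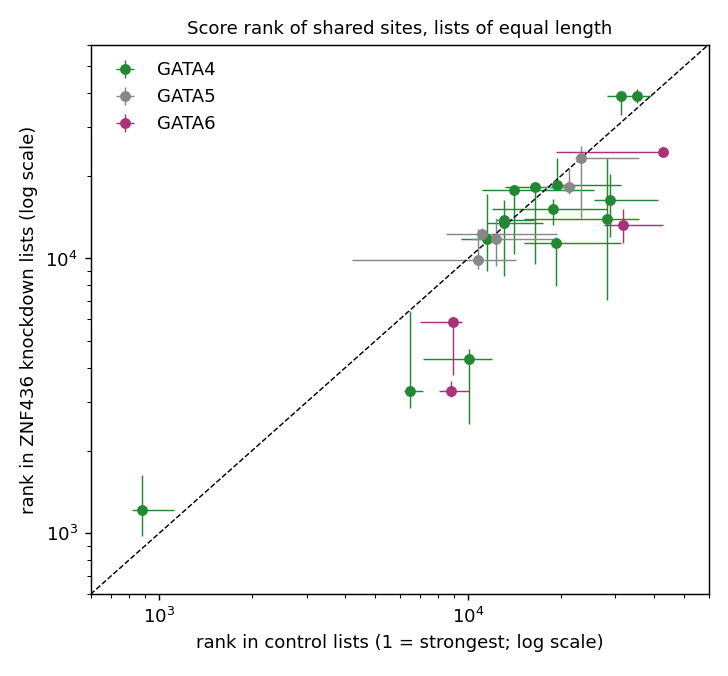
Score rank of the 24 shared sites in lists cut to 50719 peaks, in control (x) against knockdown (y), both on log scales with 1 as the strongest. Points are medians of 3 libraries, bars run from the lowest to the highest library, and the dashed line marks equal ranks. All 4 GATA6 medians lie below the line, and the 5 GATA5 sites lie near it. All knockdown ranks are stronger at 3 of the 4 GATA6 sites and at 3 of 15 GATA4 sites. All control ranks are stronger at 1 GATA4 site. In the genome these shares are 11.2% and 12.3%.

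The window limits decided which sites were counted. The peak nearest to a limit lay 0.621 to 22.6 kb inside the window and 0.137 to 34.89 kb outside it. With the windows widened by 50 kb on both sides, the log2 change in the share of peaks was 0.23 at GATA6, -0.26 at GATA5 and 0.00 at GATA4, and none was called by limma (adjusted p of 0.281, 0.188 and 0.999).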

How the data were processed

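Each of the 6 deposited lists holds peak positions, peak names and a whole-number score set by the peak caller, whose lowest value was 20 to 25. Peak names begin with MACS and carry 1 library's name, per the files. Bowtie2 2.4.5, bedtools 2.30.0 and hg19 are named per the submitters' processing notes. The sources used here do not state the caller's version or threshold, a Tn5 shift or duplicate removal. The score served only for ranks and percentiles within the authors' deposited lists. No read counts were used, so depth is unknown.

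Merging, counts, ranks and exact tests were done in Python 3.11.15 (pandas 2.3.3, numpy 2.4.6), and limma 3.58.1 (trend, robust) in R 4.3.3. Tiles with a mean of at least 2 peaks entered, with a pseudocount of 0.5. For bases, the filter was 500 bp and the pseudocount 200 bp. Sites named by rule were the 3 strongest shared sites of each locus, the widest site, and sites called in all 3 libraries of 1 group and none of the other. All other sites named were picked after their values were seen. The fits and site counting were tested on simulated data. Loci, lists and rules were chosen with earlier results of these data known. The planned counts near other heart genes and markers need an hg19 annotation and were not run.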

Additional observations from a re-analysis of the deposited data

How the results depend on the processing

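Alternatives were equal lists by score, the stronger part of each list, other merging, overlap, scaling, pseudocount, filter and window choices, a block for the replicate number, and omission of single libraries. The limma test of covered bases and the ranks in equal lists were chosen after seeing the data. The share of peaks changed direction at GATA4 with the stronger part of the lists (0.06) and without scaling (0.72), at GATA5 without scaling (0.57) and at GATA6 with equal lists (-0.13), and without scaling all 3 windows passed the threshold (1.07 at GATA6). In that setting 5907 of 8837 rows were called higher and 32 lower, and the median row changed by 0.88. Unscaled values follow list length. Peak ratios in equal lists fell below 1, to 0.901, 0.784 and 0.893 for GATA4, GATA5 and GATA6. For covered bases, the unscaled log2 changes were 1.15, 0.79 and 1.48, against 0.97 in the median row. The scaled change at GATA6 was 0.32 with equal lists. Leaving out 1 library gave scaled changes of 0.18 to 0.34 at GATA4 and 0.45 to 0.71 at GATA6. Sites of every knockdown and no control library numbered 5 (3.76%, genome 7.72%), and 0 with equal lists (genome 3.07%), 15 with peaks over at least 50% of the site (11.3%, genome 9.84%), 20 with 2 of 3 libraries (15%, genome 19.2%), 8 with wider windows (3.76%, genome 7.72%), and 6 to 14 with 1 library left out (fewer libraries then decide, with 11 without control replicate 3 and 8, 9 and 14 without knockdown replicates 1, 2 and 3). Sites called in all libraries numbered 26 (19.5%, genome 18.2%), and 13 with the stronger part (26%, genome 25.7%). They numbered 8 with the 50% rule (6.02%, genome 7.24%) and 43 with wider windows (20.2%, genome 18.2%). Without centring, 11 sites were called wider in place of 0. The mean score percentile of the strongest site was 98.56 at GATA4 and 97.8 with equal lists or 97.2 with the stronger part, and 85.78 at GATA5 and 90.34 at GATA6, which became 72.3 and 81.1 with the stronger part.

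With the replicate number as a block the share of covered bases at GATA6 changed by 0.59 (limma adjusted p = 0.0121), the share of peaks by 0.24, and no call at the 3 loci moved. Over tiles the block gave 654 higher and 594 lower rows in place of 425 and 493, and 17 wider and 62 narrower shared sites in place of 0 and 3. Other settings gave 156 and 202 for peaks and 223 and 191 for bases with equal lists, 239 and 515 for peaks with the stronger part, 5907 and 32 for peaks and 7942 and 38 for bases without scaling, and for peaks between 12 and 79 without knockdown replicate 1 and 838 and 647 without control replicate 3. The same omissions gave 89 and 128 and 1749 and 1069 for bases. Deviations from the group mean correlated at 0.00, 0.06 and 0.04 between same-numbered libraries, and at -0.08 to 0.03 between the others. Control replicates 2 and 3 correlated best with the same-numbered library, and control replicate 1 with knockdown replicate 2 (0.02). All these values were small, so the numbers are not known to pair the samples. Depth is unknown and limits every count.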
